A study of Rattus norvegicus with 12 samples.

Results

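Smooth muscle contractile genes encode the filaments, and the switch that drives them, with which smooth muscle narrows arteries, veins and airways. The 10 genes described here are Acta2, Actg2, Myh11, Tagln, Cnn1, Des, Smtn, Mylk, Myl9 and Tpm2. They were measured through all probe sets that the annotation of the study's Affymetrix rat expression array gives to one of these genes alone. Each gene had 1 such probe set, so the members were 10 of 15866 probe sets without controls and 10 of the 10411 genes that the array names. The rule uses no measured value.

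RNA of whole lung was measured in 12 male Wistar rats, with 1 array per animal. The diabetic group of 7 rats received streptozotocin by the intraperitoneal route at 8 weeks of age. Streptozotocin is toxic to pancreatic beta cells, which make insulin, and the model therefore carries both insulin loss and exposure to the toxin. The control group of 5 rats received buffer by the same route and at the same age. All rats were 12 weeks old when both lungs were removed after a fast, which both groups shared. The values are MAS 5.0 signals, which are intensities on a linear scale, and a level is compared only within a probe set and never between genes. The lung holds little smooth muscle among many other cells, and in whole tissue fewer cells of a type and less RNA per cell cannot be told apart.

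In smooth muscle, a rise in calcium activates myosin light chain kinase, which phosphorylates the regulatory light chain of myosin so that the thick filaments pull on actin thin filaments. Tropomyosin, calponin, transgelin and smoothelin bind actin, and desmin forms the intermediate filaments that tie the contractile units together. Many of these genes are switched on by serum response factor with its partner myocardin, which binds a short DNA motif named the CArG box. The same genes mark pericytes and myofibroblasts in part, so that none of them belongs to smooth muscle cells alone.

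The sequences just before the start of 2 members are shown because some genes of this class are known for CArG boxes there. They come from RefSeq on the rat build GRCr8, run 5′ to 3′ on the strand of the gene and end at the base before its start. That of Acta2 is chr1:241172504-241172753 on the minus strand, and that of Cnn1 is chr8:28908187-28908436 on the plus strand. Capitals mark sites that match a CArG box with 1 inner base changed. The sequence of Cnn1 holds neither such a site nor an exact CArG box, and so has no capitals.
Acta2: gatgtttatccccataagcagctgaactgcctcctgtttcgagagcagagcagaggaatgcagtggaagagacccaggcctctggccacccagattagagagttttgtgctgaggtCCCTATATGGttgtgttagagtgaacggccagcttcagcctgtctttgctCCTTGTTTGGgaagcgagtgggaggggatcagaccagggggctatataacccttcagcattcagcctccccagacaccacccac
Cnn1: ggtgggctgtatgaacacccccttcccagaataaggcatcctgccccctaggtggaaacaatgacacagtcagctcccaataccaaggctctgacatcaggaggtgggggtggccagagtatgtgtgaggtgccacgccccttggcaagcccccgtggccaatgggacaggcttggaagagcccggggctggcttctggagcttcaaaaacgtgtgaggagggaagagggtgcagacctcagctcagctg
The promoter table held 7 of the 10 members, and Tagln, Myh11 and Myl9 were not in it. In windows from 250 bases before to 50 bases after the start, searched on both strands, an exact CArG box occurred in 0 of 7 members, against 1.64% of 33469 promoters of the same length. The form with 1 inner base changed occurred in 1 of 7 members, against 8.10% of promoters. That member was Acta2, with CCCTATATGG from base -134 and CCTTGTTTGG from base -84, counted from the gene start. The motif CATTCC, which TEAD factors bind, occurred in 2 of 7 members (Acta2 and Mylk), against 14.2% of promoters. The motif TATAAA occurred in 0 of 7 members, against 14.2% of promoters. The forms of the CArG box do not overlap the other motifs in Acta2. These matches are matches of letters only, and the windows of Actg2, Mylk and Tpm2 begin inside longer gene models.

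The dimmest 40% of probe sets by mean log2 signal over the 12 arrays were dropped whatever their group values, and 9520 probe sets were tested. All 10 contractile genes were among them, as were all 13 alveolar epithelial markers that the array carries, which check the tissue. No contractile gene was called different between diabetic and control lung. An adjusted p of 0.05 in limma was passed by 0 of 10 members, against 16 of 9520 probe sets (0.168%). At an unadjusted p of 0.05, 1 of 10 members, Smtn, was lower in diabetic lung, against 8.68% of probe sets, and 0 of 10 were higher, against 7.75%. The signals of diabetic and control animals overlapped in all 10 genes, and did not overlap in 2.04% of probe sets. The log2 change, diabetic minus control, was below 0 in 8 genes and above 0 in 2 genes, Mylk and Des, and 52.8% of all tested probe sets were below 0. The median log2 change was -0.08 over the members and -0.01 over all probe sets tested. It was -0.16 over the members without diabetic 5 and 0.01 without control 5, and lay between these values when any other animal was left out. In the plot of each animal's signal, the points of the groups overlap in every panel.

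**Figure D1:**
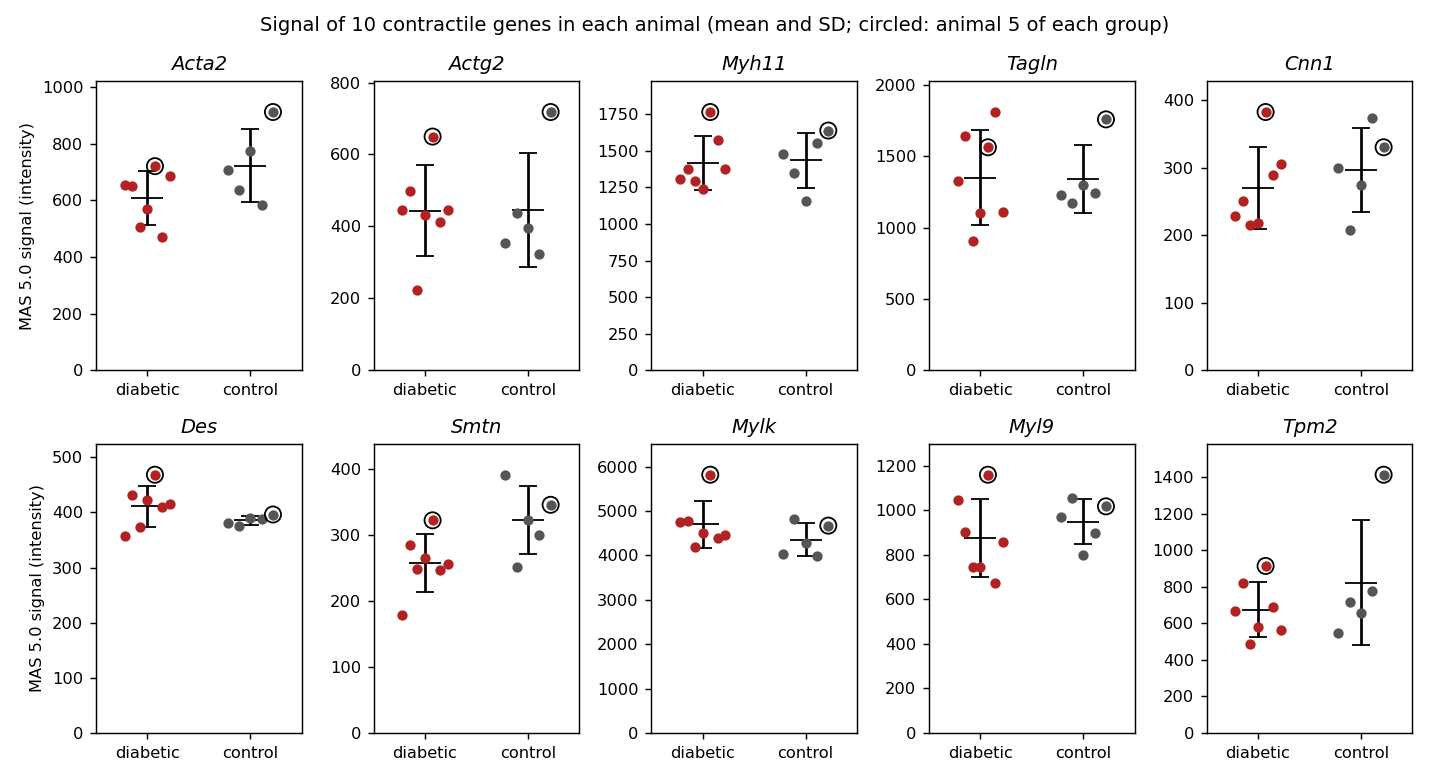
MAS 5.0 signal (intensity, linear axis from 0) of each of the 10 genes in 7 diabetic animals (left) and 5 control animals (right), with the mean and SD of each group. The groups overlap in every gene, and the circled animals, diabetic 5 and control 5, lie at or near the top of most panels.

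Among the thin filament genes, Smtn had the lowest p. Smoothelin, its product, binds actin and is a marker of contractile smooth muscle. The Smtn signal (probe set 1372684_at) had a lowest, median and highest value of 177.9, 255.3 and 322.1 in diabetic lung, against 391.2, 252.0, 322.8, 299.6 and 345.6 in control lung. In all, 3 of 7 diabetic animals were below the lowest control animal and none was above the highest. Smtn averaged 257 ± 43.7 in diabetic and 322 ± 51.8 in control lung (SD, n = 7 and n = 5, as for every ± below). The log2 change was -0.33 (SE 0.14), with a 95% interval of -0.63 to -0.03 and an unadjusted p of 0.0324. After Benjamini-Hochberg adjustment in limma p was 0.260, so the difference is not a call at the threshold of 0.05. The unadjusted p was under 0.05 in 15 of 22 alternative settings, and was not without diabetic 1, control 1, control 3 or control 5 (0.0553 to 0.101). It was also above 0.05 with a block for the replicate number (0.0929), with array weights (0.0589) and with the GAPDH ratio as a covariate (0.142).

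Acta2 encodes alpha smooth muscle actin, the main thin filament protein of vascular smooth muscle. Its signal (1370857_at) had a lowest, median and highest value of 469.4, 651.9 and 720.8 in diabetic lung, against 706.3, 637.0, 774.1, 585.1 and 912.1 in control lung. Diabetic animals 3, 4 and 6 were below every control animal, and the other 4 lay within the control range. Acta2 averaged 608 ± 94.9 in diabetic and 723 ± 128 in control lung, with a log2 change of -0.25 (SE 0.13, 95% interval -0.52 to 0.02, adjusted p 0.345 in limma). The fold of diabetic over control lung thus lay between 0.698 and 1.02 within that interval. With the GAPDH 3′ to 5′ ratio as a covariate, the log2 change of Acta2 was -0.70 and its adjusted p in limma 0.0260. That ratio itself differed between the groups, and adjusted p of Acta2 ranged from 0.0260 to 0.571 over 23 alternative settings.

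The array also carries 3 probe sets that the annotation gives to both Acta2 and the cardiac actin gene Actc1, which were left out of the members. Only 1 of them (1370856_at) passed the filter on low signals. It averaged 369 ± 111 in diabetic and 526 ± 252 in control lung, with a log2 change of -0.46 (SE 0.24, adjusted p 0.348 in limma). Its highest control value was 969.1, in control 5, and the diabetic values were 245.6 to 536.8. Actin genes are nearly identical in their coding sequence, so cross-hybridisation between the actin probe sets was not tested here.

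Actg2 encodes gamma smooth muscle actin, the isoform of visceral smooth muscle. The Actg2 signal (1386869_at) had a lowest, median and highest value of 222.9, 444.8 and 649.7 in diabetic lung, against 354.2, 437.1, 395.5, 323.6 and 718.0 in control lung. A single control animal, control 5, stood far above the other 4, and a single diabetic animal, diabetic 3, was below all controls. The means were 444 ± 126 in diabetic and 446 ± 158 in control lung, and the log2 change was -0.00 (SE 0.23, adjusted p 0.996 in limma). The 95% interval of -0.48 to 0.48 was the widest of the 10 genes, and it held folds of diabetic over control lung from 0.715 to 1.39.

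Tpm2 encodes beta tropomyosin, which lies along the actin filament. Its signal (1372219_at) had a lowest, median and highest value of 485.7, 670.5 and 915.1 in diabetic lung, against 546.0, 715.2, 655.0, 779.1 and 1415.1 in control lung. Control 5 again stood apart from the other 4 control animals, and 6 of 7 diabetic animals lay within the control range. Tpm2 averaged 676 ± 151 in diabetic and 822 ± 342 in control lung (log2 change -0.23, SE 0.20, 95% interval -0.66 to 0.20, adjusted p 0.608 in limma). The difference was smaller than the spread between control animals, and without control 5 the log2 change was -0.01.

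Cnn1 encodes calponin, which inhibits the ATPase of myosin on the actin filament and is a late marker of smooth muscle differentiation. The Cnn1 signal (1367785_at) had a lowest, median and highest value of 214.6, 250.1 and 382.3 in diabetic lung, against 299.9, 207.2, 274.8, 373.0 and 330.1 in control lung. Of the diabetic animals, 6 lay within the control range and diabetic 5 above it. The log2 change of Cnn1 was -0.14 (SE 0.16, 95% interval -0.49 to 0.21, adjusted p 0.714 in limma).

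Tagln encodes transgelin, also called SM22 alpha, an actin-binding protein. Its signal (1367570_at) had a lowest, median and highest value of 905.5, 1325.4 and 1809.8 in diabetic lung, against 1228.5, 1174.6, 1297.0, 1245.5 and 1758.2 in control lung. The 4 control animals other than control 5 kept within a narrow band, with 3 of 7 diabetic animals below it and the other 4 above it. The means of Tagln were 1351 ± 332 in diabetic and 1341 ± 237 in control lung, with a log2 change of -0.01 (SE 0.16, 95% interval -0.35 to 0.33, adjusted p 0.979 in limma).

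Among the genes of the thick filament and of its switch, none reached an unadjusted p of 0.05. Myh11 encodes the smooth muscle myosin heavy chain, a marker with little expression outside the lineage. The Myh11 signal (1370896_a_at) had a lowest, median and highest value of 1239.5, 1374.1 and 1765.8 in diabetic lung, against 1476.2, 1351.2, 1160.3, 1553.3 and 1639.1 in control lung. All but diabetic 5 lay within the control range. Its log2 change was -0.02 (SE 0.10), and the 95% interval of -0.24 to 0.20 held folds from 0.849 to 1.15 (adjusted p 0.953 in limma).

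Myl9 encodes the regulatory light chain that is phosphorylated when the muscle contracts. The signal of Myl9 (1388298_at) had a lowest, median and highest value of 672.9, 855.5 and 1159.5 in diabetic lung, against 970.6, 1057.1, 799.5, 899.7 and 1017.4 in control lung. Diabetic animals lay on both sides of the control range, 3 below and 1 above. The log2 change of Myl9 was -0.13 (SE 0.13, 95% interval -0.40 to 0.14, adjusted p 0.635 in limma).

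Mylk encodes myosin light chain kinase, which phosphorylates Myl9 when calcium and calmodulin bind it. Its signal (1371541_at) had a lowest, median and highest value of 4186.0, 4502.7 and 5819.9 in diabetic lung, against 4041.3, 4813.0, 4270.7, 3977.9 and 4672.4 in control lung. A single diabetic animal, diabetic 5, was above the control range and the other 6 were within it. Mylk averaged 4700.4 ± 535 in diabetic and 4355 ± 374 in control lung, with a log2 change of 0.11 (SE 0.08, 95% interval -0.07 to 0.28, adjusted p 0.555 in limma). Mylk is also transcribed in endothelium and other cells, where a longer form of the kinase is made, and the probe set was not assigned to a form.

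Des encodes desmin, the intermediate filament protein of muscle. The Des signal (1367600_at) had a lowest, median and highest value of 356.7, 414.9 and 468.5 in diabetic lung, against 380.0, 376.2, 389.6, 388.9 and 396.3 in control lung. Control animals were so alike that no diabetic animal fell within their range, with 5 above and 2 below it. Des averaged 411 ± 37.1 in diabetic and 386 ± 8.05 in control lung (log2 change 0.09, SE 0.08, 95% interval -0.09 to 0.26, adjusted p 0.636 in limma).

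The intervals bound the changes that these arrays leave possible. The 95% interval lay wholly within a 1.5-fold change either way in 8 of 10 members, against 88.2% of probe sets. The exceptions were Smtn and Tpm2, whose intervals reached 0.648-fold and 0.633-fold.

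**Figure D2:**
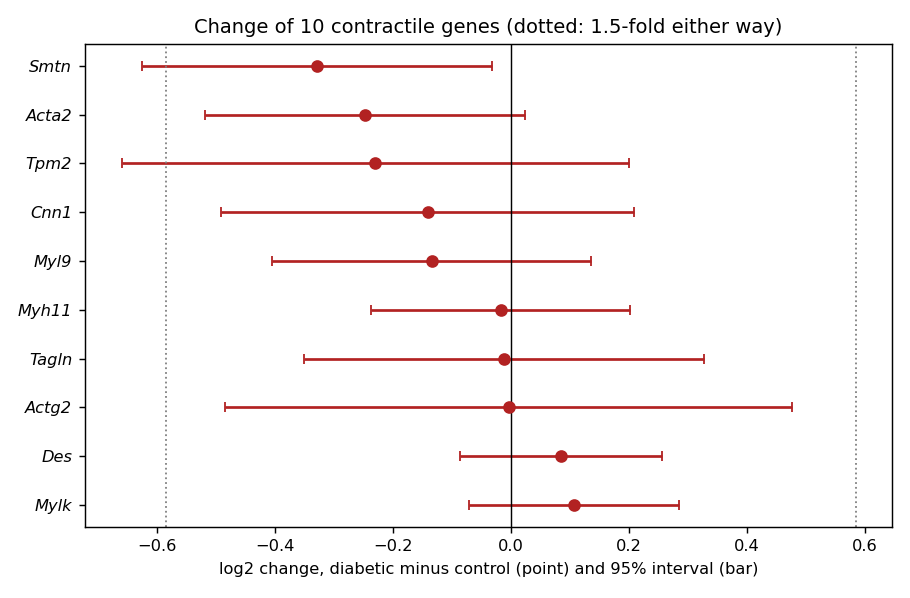
Log2 change (diabetic minus control, point) and 95% interval (bar) of each gene from limma, with dotted lines at a 1.5-fold change either way. The interval of Smtn alone leaves out 0, and those of Smtn and Tpm2 alone pass a dotted line.

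The members varied more between animals of one group than the typical probe set. The pooled SD within groups, on the log2 scale, had a median of 0.25 over the members and 0.19 over all tested probe sets. It was 0.46 in Actg2 and 0.41 in Tpm2, above 97.0% and 95.6% of all tested probe sets. By contrast it was 0.10 in Des and 0.14 in Mylk, with 7.67% and 25.5% of probe sets below them. In all, 7 of 10 members were above the median of the array.

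This spread was shared between the genes. Each animal's log2 signal was set against the mean of its own group, so that the difference between diabetic and control lung is removed. Over the 12 arrays, Pearson's r of these deviations had a median of 0.47 over the 45 pairs of members, was above 0 in 44 pairs and above 0.5 in 44.4% of them. Between members and every other tested probe set the median r was 0.00, and 6.84% were above 0.5. These values describe 12 arrays, on each of which all genes share 1 RNA sample and 1 scaling. Over the 7 diabetic arrays alone the median r over pairs was 0.63 (45 of 45 above 0). Over the 5 control arrays, which are few for a correlation, it was 0.39, with a lowest r of -0.64 and 36 of 45 above 0.

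The highest r was that of Actg2 and Tpm2, at 0.83 (Spearman's coefficient 0.76). Tagln and Tpm2 followed with 0.79 (Spearman's 0.78), and Actg2 and Mylk with 0.79 (Spearman's 0.84). The lowest was that of Smtn and Myl9, at -0.01. Set against the mean of the other 9 members, Actg2 had an r of 0.84 and Tpm2 of 0.81, while Smtn had the lowest, at 0.36.

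The animals diabetic 5, control 5 and diabetic 3 deviated in one direction in every member. Diabetic 5 was above its group's mean in 10 of 10 members, by a mean of 0.37 on the log2 scale (1.29-fold), and was the highest diabetic animal in 9, all but Tagln. It was the highest diabetic animal in 17.7% of all tested probe sets. Control 5 was above its group's mean in 10 of 10 members, by a mean of 0.31 (1.24-fold). That animal was the highest control animal in 6 of 10, namely Acta2, Actg2, Myh11, Tagln, Des and Tpm2, against 23.8% of all probe sets. Diabetic 3 was above its group's mean in 0 of 10, with a mean deviation of -0.31 (0.805-fold). It was the lowest diabetic animal in 5 of 10, namely Actg2, Tagln, Cnn1, Mylk and Tpm2, against 14.2% of all tested probe sets. The labels do not say whether the shared number of diabetic 5 and control 5 has a meaning.

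Without diabetic 5 and control 5, the median r over the 45 pairs was 0.15, with a range of -0.57 to 0.74 and 30 pairs above 0. Here and in every r below without them, the deviations were still taken from group means that include both animals. A difference between the groups can therefore enter these values. The pairs named above kept a positive r over the remaining 10 arrays, at 0.61 for Actg2 and Tpm2, 0.74 for Tagln and Tpm2, and 0.68 for Actg2 and Mylk. The 2 animals left out were those whose member mean lay farthest from the median, and leaving out such animals can by itself lower r. How far the relation over the whole list rests on these 2 animals was therefore not tested. Their mean r with the arrays of their own group was 0.957 for diabetic 5 and 0.953 for control 5, within ranges of 0.952 to 0.962 in diabetic and 0.947 to 0.958 in control lung. The beta-actin 3′ to 5′ ratio of control 5 was 2.75, against 1.63 to 2.17 in the other 4 control animals. The highest beta-actin ratio of the 12 arrays was 2.85, in diabetic 6, whose mean deviation over the members was -0.01. That of diabetic 5 was 1.84. The GAPDH signal of diabetic 5, at 3350, was the lowest of the 12 arrays. Diabetic 5 also deviated from its group by 0.26 in the mean of the fibroblast markers and by 0.21 in that of the pericyte markers. In the mean of the macrophage markers it deviated by -0.29. Control 5 deviated from its group by 0.02, -0.09 and -0.02 in the same means. The part of these measures in the members' values was not tested.

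**Figure D3:**
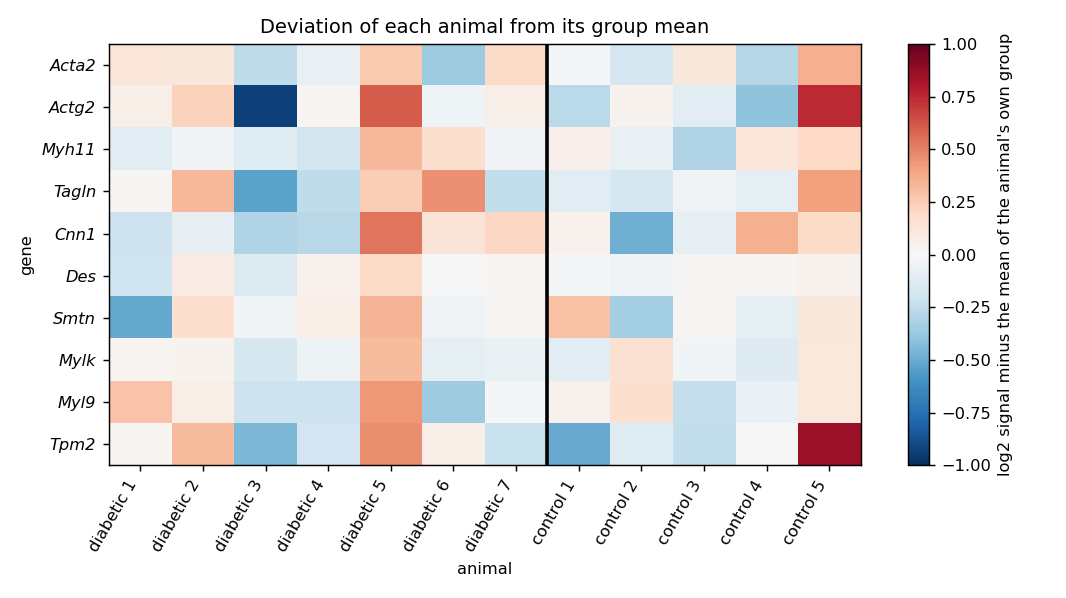
Deviation of each animal's log2 signal from the mean of its own group (colour) for the 10 genes (rows) in 7 diabetic animals (left of the line) and 5 control animals (right). The columns of diabetic 5 and control 5 are above 0 in 10 of 10 genes, and that of diabetic 3 is below 0 in 10 of 10.

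Outside the list, 8 genes had deviations most like the members' mean over the 12 arrays. They were Exoc6b (r = 0.90), Rassf3 (0.86), Lrrc51 (0.84), Psd4 (0.83), Smg5 (0.81), Fchsd2 (0.80), Ptprm (0.79) and Trak2 (0.79). Over all tested probe sets the median r was 0.01, and 5.59% were above 0.5. Without diabetic 5 and control 5 the r of these genes was 0.33 to 0.73, highest in Exoc6b.

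Other genes of the smooth muscle cytoskeleton and its adhesions were listed apart from the members. Of 27 listed genes, 20 were tested, and 0 passed an adjusted p of 0.05 in limma. At an unadjusted p of 0.05, 1 gene was higher and 1 lower, against 7.75% and 8.68% of all tested probe sets. The median log2 change of the list was 0.03. Vim, the gene of vimentin, averaged 6440 ± 712 in diabetic and 5584 ± 543 in control lung (log2 change 0.20, adjusted p 0.260). Flna, which encodes the actin crosslinker filamin A, averaged 3732 ± 528 in diabetic and 4386 ± 535 in control lung (log2 change -0.24, adjusted p 0.284). In deviations from group means, 8 of the 20 genes had an r above 0.5 with the members' mean, led by Synpo2 (0.72), Pdlim3 (0.69) and Tpm1 (0.68), which are named here after their values were seen. Without diabetic 5 and control 5 these were 0.27, 0.57 and 0.45. An r below 0 was found in 5 of the 20, namely Synm, Tns1, Vcl, Cav1 and Vim, which are also named for their values. The mean of the list in diabetic 5 deviated by 0.19 from its group, that in control 5 by 0.07. The mean of the list had an r of 0.85 with the mean of the members (Spearman's 0.49), and of 0.62 without diabetic 5 and control 5.

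Serum response factor, a myocardin-related partner and other factors that act on these genes formed a list of their own. Of 18 listed gene names, some of them older names of the same gene, 9 were tested. Of these, 0 passed an adjusted or an unadjusted p of 0.05 in limma in either direction. Myocd, the gene of myocardin, was not among the genes tested. Tead1 had a log2 change of 0.16, Klf4, a repressor of the contractile genes, of 0.20 and Smad3 of 0.15 (adjusted p 0.421, 0.447 and 0.465). In deviations from group means, the mean of this list had an r of -0.11 with that of the members. The genes of the list differed in this: Srf, the gene of serum response factor, had an r of 0.62 (0.58 without diabetic 5 and control 5), and Mrtfa, the gene of the partner, of -0.06. Srf and Mrtfa are named here after their values were seen.

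Myosin phosphatase removes the phosphate that myosin light chain kinase adds. The 3 genes of smallest p among those that set this balance were subunits of protein phosphatases, and none of them passed an adjusted p of 0.05 in limma. Ppp1cb, the catalytic subunit of myosin phosphatase, had a lowest, median and highest signal of 1873.2, 2147.2 and 2533.5 in diabetic lung, against 1667.5, 1759.8, 1823.4, 1565.2 and 1696.6 in control lung. The groups did not overlap, and the log2 change was 0.33 (SE 0.08, unadjusted p 0.00122, adjusted p 0.0862). Ppp1r12a, the subunit that targets the phosphatase to myosin, averaged 1157 ± 128 in diabetic and 920.4 ± 110 in control lung (log2 change 0.33, adjusted p 0.118). Ppp1cc, a related catalytic subunit, had a log2 change of 0.27 (adjusted p 0.145). Dapk3, a kinase that phosphorylates the targeting subunit and the light chain, had signals of 617.6 to 841.8 in diabetic and 852.9 to 997.3 in control lung (log2 change -0.26, adjusted p 0.155), and is named here because its groups did not overlap.

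Of the genes that bring the contractile signal to the cell, 1 passed the test. P2rx1 encodes an ATP-gated cation channel of vascular smooth muscle and platelets. Its signal had a lowest, median and highest value of 180.2, 210.5 and 257.8 in diabetic lung, against 314.5, 289.7, 309.1, 351.7 and 306.9 in control lung. Each diabetic animal was below each control animal, with a log2 change of -0.57 (SE 0.11, adjusted p 0.0482 in limma). P2rx1 kept this direction in 22 alternatives, with log2 changes of -0.62 to -0.45 and adjusted p from 0.0370 to 0.128, below 0.05 in 8. The call was lost without any 1 control animal and without any 1 of diabetic 1, 2, 3, 4 and 6. It was also lost with no filter (adjusted p 0.0961), the replicate number as a block (0.0972), the GAPDH ratio as a covariate (0.0960) and without diabetic 5 and control 5 together (0.0863). P2rx1 lay near the filter on low signals and was not tested with the lowest 60% left out. Of 22 agonist receptors and their regulators on the array, 7 passed the filter on low signals and were tested. Their median log2 change was -0.21, and it was -0.07 over those left with the lowest 60% of probe sets left out. At an unadjusted p of 0.05 in limma, 2 of the 7 were lower and 0 higher, against 8.68% and 7.75% of all tested probe sets. Besides P2rx1, the lower gene was Rgs5, a regulator of G protein signalling that is also a pericyte marker, at -0.41 (adjusted p 0.301).

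Of 17 calcium and potassium channel genes of smooth muscle on the array, 10 were tested, with a median log2 change of -0.08. At an unadjusted p of 0.05 in limma, 2 of the 10 were lower and 0 higher, against 8.68% and 7.75% of all tested probe sets. The 2 lower genes were subunits of the L-type calcium channel, Cacnb2 at -0.22 (adjusted p 0.189) and Cacna1c at -0.28 (adjusted p 0.199). Of 17 relaxation pathway genes on the array, 10 were tested, with a median log2 change of -0.05. At that p 2 of them were lower and 0 higher. Pde5a, the phosphodiesterase that degrades cyclic GMP, had a lowest, median and highest signal of 118.2, 146.1 and 189.5 in diabetic lung, against 181.9, 289.2, 287.9, 198.5 and 230.8 in control lung. Only diabetic 5 was above the lowest control animal, and the log2 change was -0.64 (SE 0.16, adjusted p 0.0817). Pde5a averaged 152 ± 27.5 in diabetic lung, below the filter signal of 170.0, and 238 ± 49.7 in control lung. It thus passed the filter through its control values. Hspb6, a small heat shock protein that is phosphorylated when smooth muscle relaxes, averaged 363 ± 54.8 in diabetic and 458 ± 52.6 in control lung (log2 change -0.34, adjusted p 0.161). In limma 0 of these channel and relaxation genes reached an adjusted p of 0.05.

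Genes of other actin, myosin, tropomyosin and filament isoforms numbered 14 tested, with a median log2 change of -0.02. At an unadjusted p of 0.05 in limma, 1 of the 14 was higher and 1 lower, against 7.75% and 8.68% of all tested probe sets. The higher one was Vim, which belongs to both lists. The lower one, Myh10, a nonmuscle myosin heavy chain, had a log2 change of -0.35 (adjusted p 0.203 in limma).

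Fibroblasts lie beside smooth muscle in vessel and airway walls. Of 19 fibroblast markers on the array, 15 were tested, with a median log2 change of -0.56. At an unadjusted p of 0.05 in limma, 11 of the 15 were lower and 2 higher, against 8.68% and 7.75% of all tested probe sets. In limma 0 of the 15 reached an adjusted p of 0.05. The summed signal of the 19 fibroblast markers on the array was 32030 to 45396 in diabetic and 46969 to 50135 in control lung, without overlap. Col1a1, a chain of type I collagen, averaged 889 ± 316 in diabetic and 1759 ± 392 in control lung (log2 change -1.06, adjusted p 0.0760). Col3a1, the chain of type III collagen, averaged 4809 ± 1648 in diabetic and 8739 ± 392 in control lung (log2 change -0.97, adjusted p 0.0926). Pdgfra, a growth factor receptor of fibroblasts, was on the other side at a log2 change of 0.58 (adjusted p 0.0552). The summed signal of the 10 contractile genes was 9182 to 13766 in diabetic and 10339 to 13204 in control lung.

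Pericytes surround small vessels and share Acta2 and other contractile genes with smooth muscle. The median log2 change of 12 tested pericyte markers was -0.23. At an unadjusted p of 0.05 in limma, 5 of the 12 were lower and 1 higher, against 8.68% and 7.75% of all tested probe sets. Ndufa4l2 had a log2 change of -0.71 (adjusted p 0.0793) and Higd1b of -0.33 (adjusted p 0.101), while Anpep, which other lung cells also express, had 0.49 (adjusted p 0.0729). The summed signal of the 13 pericyte markers on the array was 8886 to 12579 in diabetic and 10781 to 11862 in control lung. The part that a changed share of fibroblasts or pericytes has in the values of the contractile genes was not tested.

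The mean log2 signal of the contractile list, relative to the control mean, was -0.14, 0.03, -0.40, -0.20, 0.28, -0.10 and -0.10 in diabetic animals 1 to 7. It was -0.06, -0.11, -0.09, -0.06 and 0.31 in control animals 1 to 5. Diabetic 5 and control 5 were the highest of their groups, and the groups overlapped. The mean of the fibroblast markers was -0.25, -0.49, -0.46, -0.34, -0.16, -1.07 and -0.18 in diabetic animals 1 to 7, against -0.14, 0.07, 0.05, 0.00 and 0.02 in control animals. Every diabetic animal was below every control animal, with diabetic 6 farthest. The contractile mean of diabetic 6 was near that of its group, but its single genes were not all so. It was the lowest diabetic animal in Acta2 and Myl9 and the highest in Tagln. The 3′ to 5′ ratios of diabetic 6, 1.30 for GAPDH and 2.85 for beta-actin, were the highest of its group. In deviations from group means the fibroblast and contractile lists had an r of 0.18 over the 12 arrays, and of -0.15 without diabetic 5 and control 5. Single fibroblast markers differed in their r with the members' mean, which was above 0 in 12 of 15. It was lowest in Dcn, at -0.87 (-0.74 without these 2 animals), and highest in Fbln1, at 0.62 (0.27). Dcn and Fbln1 are named here after their values were seen. The mean of 9 macrophage markers ran against the contractile mean, with an r of -0.52 (Spearman's -0.52) over the 12 arrays and of -0.35 without diabetic 5 and control 5. Its part in the values of the contractile genes was not tested.

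**Figure D4:**
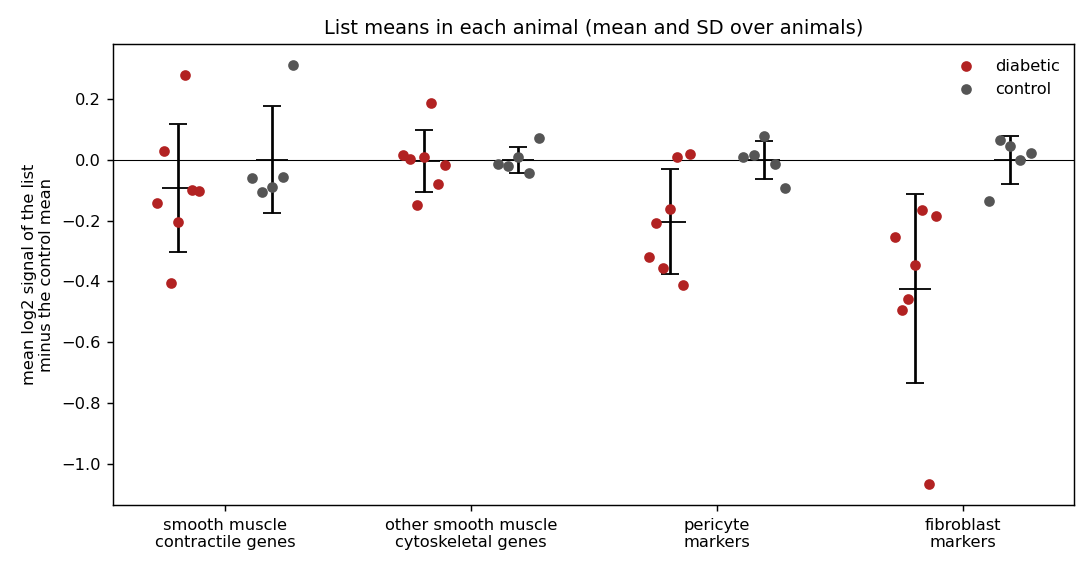
Mean log2 signal of gene lists in each animal, relative to the control mean, with the mean and SD over animals (diabetic left, control right within each list). The contractile list overlaps between groups, and each of the 7 diabetic animals lies below the 5 control animals in the fibroblast markers.

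Heart and skeletal muscle left on the lung would add striated muscle genes, some of which share sequence with the members. Of 29 markers of those tissues on the array, 2 passed the filter on low signals. Myh1 averaged 1159 ± 266 in diabetic and 1109 ± 157 in control lung. Mybpc3 had signals of 41.9 to 322 in diabetic and 225.4 to 392.9 in control lung. The summed signal of all 29, to which Myh1 gave the most, was 2696 to 3660.5 in diabetic and 2649 to 3905 in control lung. Endothelial markers were lower in 2 and higher in 0 of 11 tested genes at an unadjusted p of 0.05, airway markers lower in 1 of 7, alveolar markers higher in 2 and lower in 2 of 13, and macrophage markers higher in 2 of 9. Mesothelial markers did so in 0 of 5. Of all tested probe sets, 8.68% were lower and 7.75% higher at that p. None of these markers passed an adjusted p of 0.05 in limma.

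Across all arrays the median signal was 253.5 to 266.3 in diabetic and 260.2 to 272.8 in control lung. The 3′ to 5′ signal ratio of GAPDH, which depends on the integrity of the RNA, was 1.15 ± 0.0710 in diabetic and 1.32 ± 0.0778 in control lung and differed (exact permutation test over 792 splits, two-sided, p = 0.00505). That of beta-actin was 2.08 ± 0.372 in diabetic and 2.06 ± 0.437 in control lung (exact permutation test, p = 0.884). The members' mean deviation from the mean of the animal's own group had an r of -0.12 with the log2 GAPDH ratio over the 12 arrays. With the log2 beta-actin ratio it was 0.21. The ratios were not set against their group means, though that of GAPDH differed between the groups. The part of RNA integrity in the values of the members was not tested beyond the fits with these ratios as covariates.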

How the data were processed

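Lung RNA of 7 diabetic and 5 control rats was hybridised to Affymetrix rat expression arrays. The authors computed 1 signal per probe set and array with MAS 5.0, and the deposited values are intensity values on a linear scale. Here they were taken as scaled by the authors and transformed to log2, with 1 value at or below 0 set to 0.1. The 57 control probe sets were left out. The diabetic and control arrays were compared by a two-sided test in limma 3.58.1 (R 4.3.3) with lmFit and trended eBayes, with Benjamini-Hochberg adjustment over 9520 probe sets, those above a mean signal of 170.0. The fit was tested on simulated data. Tables and figures were made in python 3.11.15 with scipy 1.17.1, pandas 2.3.3 and matplotlib 3.10.9. Precision is limited by the number of arrays.

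The members and lists were chosen with earlier results of these data known. The text names every member, the 8 genes most like the members' mean, Col1a1, Col3a1, beta-actin and GAPDH. It also names genes with the smallest p of the lists (3 at most), and other genes only where it says so. Of the genes with the smallest p it gives no values for Adra1b, Atp2b4, Adora2b and Myh9. The same holds for those of the endothelial, airway, alveolar, macrophage and mesothelial markers. Alternatives covered scaling, pseudocount, filter, variance model, array weights, replicate number, RNA integrity ratios and leaving out animals. Leaving out diabetic 5 and control 5 together, and leave-one-out values of the ratios, were chosen after seeing the data. The methods' BAMarray test and the present and absent calls were not used here, and the counts over 1 gene list are not reported here.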

Additional observations from a re-analysis of the deposited data

Results flagged for a closer look

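Of 24 groups of values examined (the signals of the 10 contractile genes and both 3′ to 5′ ratios, in diabetic and in control lung), 5 held an animal far from the others of its group by Dixon's criterion. By chance about 1 in 20 groups is flagged. Among diabetic animals, diabetic 5 stood above the others in Mylk, at a signal of 5819.9. Diabetic 6 stood above the other diabetic animals in the GAPDH 3′ to 5′ ratio, at 1.30, a value within the control range of 1.23 to 1.44. In control lung, control 5 stood above the other 4 animals in Actg2 (718.0), Tagln (1758.2) and Tpm2 (1415.1). Without control 5 the log2 change of Actg2 was 0.18, that of Tagln 0.09 and that of Tpm2 -0.01, and none of them passed an adjusted p of 0.05 in limma.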

How the results depend on the processing

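Of 228 recomputed log2 changes of single contractile genes, 202 kept their direction and their side of an adjusted p of 0.05 in limma, 25 changed sign and 1 passed the threshold. The one that passed was Acta2 with the GAPDH ratio as a covariate, at -0.70 (adjusted p 0.0260), which put 1 contractile gene past the threshold there, against 0 in the other alternatives. The changes of sign fell in Actg2, Myh11, Tagln, Cnn1 and Mylk. Actg2 was 0.023 with centred arrays, 0.018 with quantile normalization, 0.038 with array weights and 0.082 without diabetic 5 and control 5. Myh11 was 0.0093 with centred arrays, 0.0073 with array weights and 0.16 with the GAPDH ratio. Tagln was 0.015 with centred arrays, 0.13 with the GAPDH ratio and 0.048 without diabetic 5 and control 5. With the GAPDH ratio Cnn1 was 0.024 and Mylk -0.036. When 1 animal at a time was left out, Actg2 ranged from -0.11 to 0.18, Myh11 from -0.092 to 0.033, Tagln from -0.089 to 0.090 and the log2 difference of the beta-actin ratio from -0.057 to 0.13. The count of contractile genes lower at an unadjusted p of 0.05, 1 in the report, was 0 with the lowest 60% of probe sets left out (which removes Cnn1 and Smtn), with array weights and with a replicate block, and 0 to 2 with 1 animal left out. With the GAPDH ratio that 1 gene was Acta2 and not Smtn. The count of all probe sets past an adjusted p of 0.05, 16 in the report, was 25 with quantile normalization, 7 with no filter, 32 with the lowest 60% left out, 9 with no intensity trend, 80 with array weights, 288 with the GAPDH ratio, 27 with the beta-actin ratio and 2 to 27 with 1 animal left out. With the GAPDH ratio the median log2 change was -0.17 over the contractile genes, -0.42 over pericyte markers and -1.03 over fibroblast markers. In the same fit it was -0.058 over the other cytoskeletal genes, 0.28 over airway markers and 0.16 over alveolar markers. The median there was -0.18 over the calcium and potassium channels, -0.13 over the relaxation pathway genes and -0.80 over the 2 tested striated muscle markers. The causes were not tested. The labels do not say whether the replicate numbers pair the samples. The deviations of same-numbered animals had correlations of -0.12 to 0.04, which cannot show whether such animals were handled together. With the number as a replicate block 11 probe sets passed. The choice between the brightest probe set and a mean has no effect, since each contractile gene had 1 probe set. The limits of these data are the 7 and 5 animals, 1 probe set per gene, and whole tissue in which smooth muscle is a minor part. Dim genes such as Cnn1, Smtn, P2rx1 and Pde5a lie near the filter.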
